A study of Mus musculus with 2 samples.

Results

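Trem2 and 9 genes that accompany it in lipid-associated macrophages were followed here, 10 of the 22597 genes in the matrix. They are Trem2, Apoe, Gpnmb, Fabp4, Fabp5, Lpl, Cd36, Spp1, Cd9 and Lgals3, and they were taken by their symbols alone, each of which matched 1 row. The cells were donor-derived monocytes and macrophages of mouse lung, profiled in 1 droplet library of 3′ RNA tags beside a library of hashtag antibodies. Irradiated CD45.1+CD45.2+ IM-DTR hosts had received CD45.1-CD45.2+ bone marrow of 1 of 2 genotypes. The control pool came from Tgfbr2 fl/fl marrow and the Tgfbr2-KO pool from LyzM-Cre Tgfbr2 fl/fl marrow. Both kinds of chimera were given 50 ng of diphtheria toxin, and lungs were taken 10 days later. As background, the toxin removes interstitial macrophages in IM-DTR animals, and LyzM-Cre acts in myeloid cells at large rather than in lung macrophages alone. The sort kept donor cells with CD11b, CD64 and low side scatter and left out cells with Ly6G or SiglecF, so host cells that outlived the toxin were not sampled. Lung suspensions of 5 chimeric mice were pooled, which is read here as 5 per genotype, and each genotype had 1 hashtag, B0301 for control and B0303 for Tgfbr2-KO. The study thus has 1 pool per genotype, no replicate and no test of the genotype, and the ages and sexes of the mice are not given in the sources used here.

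As background, Trem2 is a surface receptor for lipids, lipoproteins and cell debris that signals through the adaptor Tyrobp and the kinase Syk. In obese fat, in atherosclerotic plaques and around amyloid in the brain, macrophages or microglia with high Trem2 also carry genes that take up, bind, split and export lipid, and such cells are called lipid-associated or damage-associated. In the lung, interstitial macrophages lie in the tissue outside the airspaces, descend from monocytes, and are commonly divided by the mannose receptor CD206, the product of Mrc1. TGF-beta reaches the nucleus through the receptor pair Tgfbr1 and Tgfbr2 and the Smad proteins.

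Of 4887 called cells, all of which have their barcode in the RNA matrix, 1896 control and 2674 Tgfbr2-KO cells were kept. They held 16298452 and 30729204 UMIs (unique molecular identifiers, each counted as 1 RNA molecule), with medians of 7785 and 10277.5 UMIs per cell. Levels are given as UPM, a gene's UMIs in a pool or gate for every 1000000 gene UMIs found there, on a linear scale. Intervals in brackets are exact 95% intervals (Poisson for levels, conditional binomial for ratios, Clopper-Pearson for percentages of cells). They hold counting error alone and say nothing of differences between mice. Tgfbr2 itself was read at 215 UPM in control and 195.2 UPM in Tgfbr2-KO cells, but a 3′ tag need not lie in the deleted part, so this checks neither the deletion nor the labels. Lyz2, the gene into which LyzM-Cre is inserted, was at 13282 against 5949 UPM.

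Cells were split by the summed level of marker genes, none of them a member, so a gate is a range of a score and not a cell type. Proliferating cells were set apart first. Cells with little C1q, the complement subunits that mark most tissue macrophages, were divided into a monocyte gate, a structural gate and the remaining "other C1q-low" cells. The rest went to an interferon-activated gate (Cxcl9, Ly6a, Ly6i, Gbp2, Iigp1), an Fn1-rich gate (fibronectin), a Mrc1-high gate (Mrc1, Folr2, Cd163, Lyve1) and, with all others, a Mrc1-low gate. Control and Tgfbr2-KO pools held 1034 and 879 Mrc1-low, 474 and 622 Mrc1-high, 163 and 239 other C1q-low, 111 and 19 Fn1-rich, 6 and 457 interferon-activated, 68 and 166 proliferating, 36 and 281 monocyte, and 4 and 11 structural cells. Of the 1508 control and 1501 Tgfbr2-KO cells that reached the Mrc1 split, 181 and 179 lay within 25% of its cut-off. Pools were compared only in gates with at least 100 cells in both. The 5 CD206+ markers summed to 3004 and 3832 UPM in the control and Tgfbr2-KO Mrc1-high gate, against 359 and 356 UPM in the Mrc1-low gate, a separation that the gating fixed, since 4 of the 5 define it. The remaining one, Cd209f, was at 251 and 612 UPM in the Mrc1-high and 2.94 and 0.576 UPM in the Mrc1-low gate. Of the CD206- markers, Cd207 was at 71.5 and 40.6 UPM in the Mrc1-low against 5.88 and 10.8 UPM in the Mrc1-high gate, and H2-M2 at 238 and 210 against 40.7 and 35.6 UPM. Over all cells the 11 alveolar macrophage markers summed to 191 and 167 UPM, with Siglecf at 0.920 and 0.749 UPM, and the 6 neutrophil markers to 52.6 and 138 UPM.

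In the pool that lacks a TGF-beta receptor gene by design, Trem2 and Cd9 were lower and Gpnmb was higher. Over all cells, Gpnmb was under the level for a call. Promoter stretches of these 3 members are shown first. They come from RefSeq (GRCm38.p6), which gave promoters for 7 of the 10 members and none for Fabp4, Fabp5 and Lpl. Each is the 250 bases before the annotated start, read 5′ to 3′ on the gene's strand, with matches to the searched motifs in capitals. Trem2 lies on chromosome 17 at 48346401 to 48352276, and its stretch at chr17:48346151-48346400 on the plus strand. Cd9 lies on chromosome 6 at 125460266 to 125494760, with its stretch at chr6:125494761-125495010 on the minus strand, and Gpnmb on chromosome 6 at 49036518 to 49058182, with chr6:49036268-49036517 on the plus strand.
Trem2: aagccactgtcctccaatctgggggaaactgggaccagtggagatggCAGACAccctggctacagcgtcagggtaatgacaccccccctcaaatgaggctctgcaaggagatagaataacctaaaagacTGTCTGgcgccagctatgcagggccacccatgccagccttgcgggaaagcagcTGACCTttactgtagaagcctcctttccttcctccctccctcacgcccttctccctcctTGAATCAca
Cd9: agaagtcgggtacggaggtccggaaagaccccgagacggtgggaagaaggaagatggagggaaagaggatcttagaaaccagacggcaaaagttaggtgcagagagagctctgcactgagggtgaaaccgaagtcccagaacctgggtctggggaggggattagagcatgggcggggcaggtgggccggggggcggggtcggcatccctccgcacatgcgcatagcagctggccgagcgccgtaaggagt
Gpnmb: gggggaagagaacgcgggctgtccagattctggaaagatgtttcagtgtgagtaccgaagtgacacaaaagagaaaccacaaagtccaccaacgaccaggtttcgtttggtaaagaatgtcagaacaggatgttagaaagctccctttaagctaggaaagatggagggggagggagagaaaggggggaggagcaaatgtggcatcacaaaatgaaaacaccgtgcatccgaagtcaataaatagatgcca
Trem2 held the Smad motif CAGACA at 2 places, 203 to 198 bases and, as its complement TGTCTG, 121 to 116 bases before the start. It also held the core nuclear receptor motif AGGTCA (as TGACCT) at 68 to 63 bases and the AP-1 motif TGANTCA at 9 to 3 bases. The Cd9 and Gpnmb stretches held no match to any motif searched. The stretches of Apoe, which was also lower and is not shown, held none either. CAGACA was present in 3 of the 7 members with a promoter (Trem2, Spp1 and Lgals3) and in 17.1% of 32851 mouse promoters of the same length. Apoe and Spp1 had more than 1 promoter, so a count by member is not on the same basis as this share by promoter. At least 2 matches, as in Trem2, were present in 2.09% of them. AGGTCA was in 14.0% of promoters and in Trem2 and Cd36, and TGANTCA in 6.75% and in Trem2 alone among the members. Both strands were searched, also for CACGTG, GTCTAGAC, TTCNNNGAA and GAGGAAGT, present in 6.02%, 0.167%, 7.02% and 2.44% of promoters, and for the interferon response motif, present in 2.98%. The interferon response motif and the PU.1 motif GAGGAAGT each matched in Spp1 alone among the members, and the other 3 (E-box, Smad palindrome and Stat) matched none. Such matches are letters in a window, not shown sites.

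Trem2 was highest in Fn1-rich control cells and lower in Tgfbr2-KO than in control cells of every gate compared. In control cells it stood at 730 UPM (690 to 772) in the Fn1-rich gate and 454 (440 to 469) in the Mrc1-low gate. Next came other C1q-low at 342 (310 to 377), Mrc1-high at 334 (316 to 352) and proliferating cells at 319 (281 to 360), whose intervals overlap. Control monocytes were at 87.2 (57.0 to 128). In Tgfbr2-KO cells the order began with the Mrc1-low gate at 225 UPM (215 to 235) and Fn1-rich cells at 202 (154 to 259), which overlap. Other C1q-low, Mrc1-high and proliferating cells followed at 118, 112.5 and 111 UPM with overlapping intervals, then interferon-activated cells at 81.8 (75.2 to 88.8) and monocytes at 24.98 (19.8 to 31.1). The level in Tgfbr2-KO cells was thus below the control level of the same gate in each gate compared, while the Mrc1-low gate stayed above the Mrc1-high gate in both pools. It was also below it in the gates too small to compare, where a level can rest on few cells. Interferon-activated control cells were at 201 UPM (110 to 337.5), from 6 cells and 14 UMIs.

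**Figure D1:**
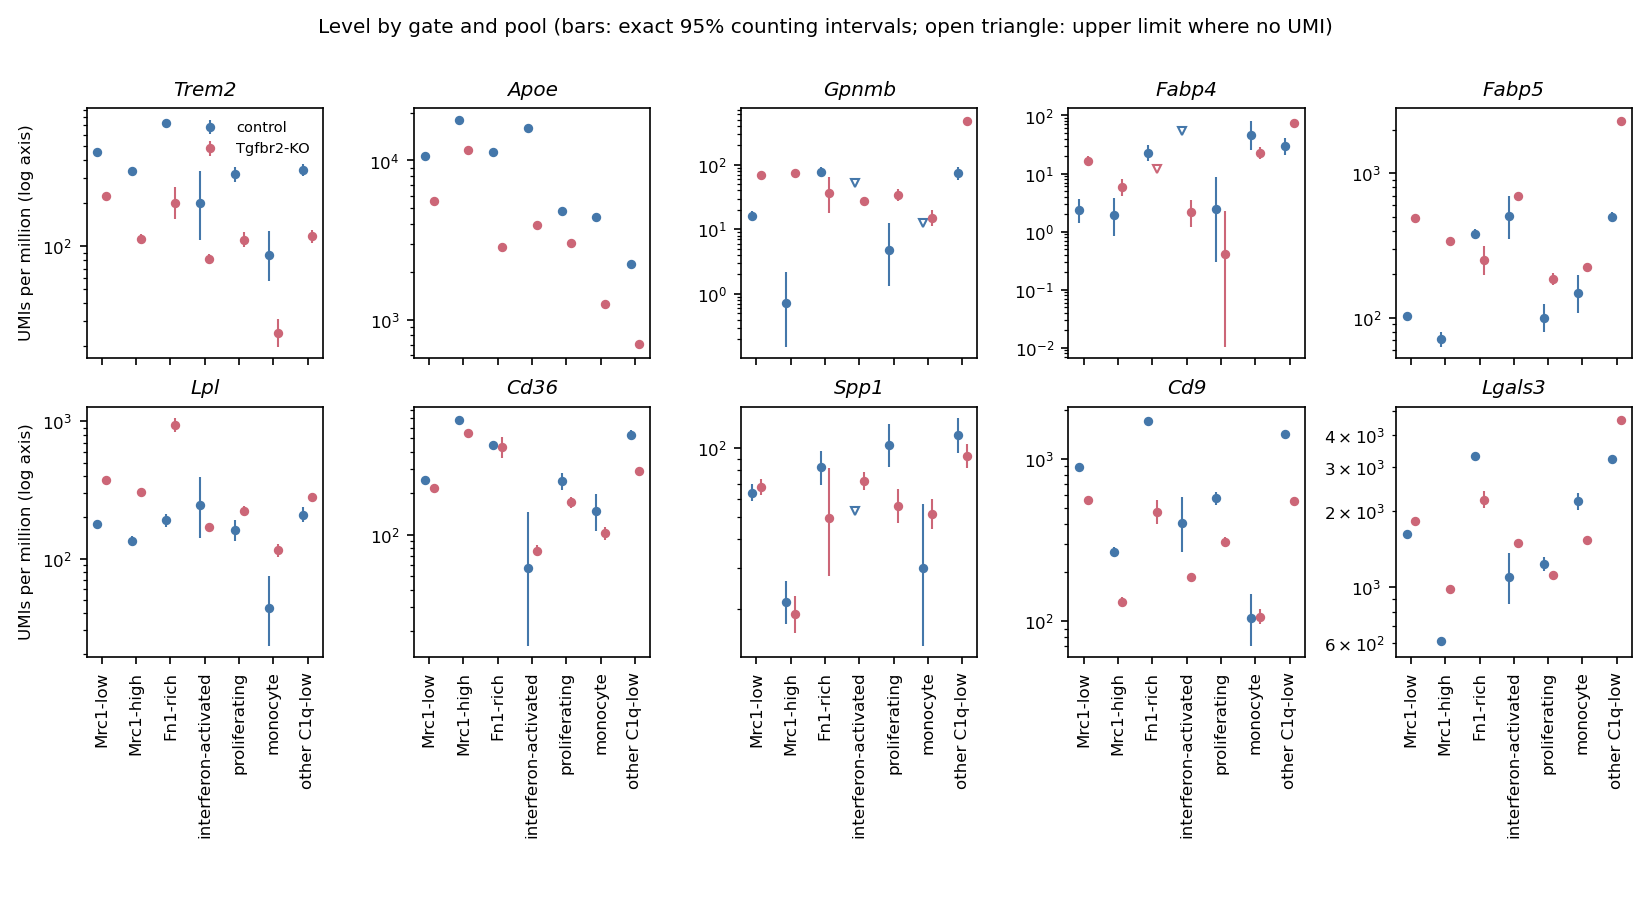
Level of each member in UPM (log axis, 1 panel per gene) by marker gate, in the control pool (blue) and the Tgfbr2-KO pool (red), with exact 95% counting intervals; open triangles are upper limits where no UMI was found. Trem2 in control cells ran from 87.2 UPM in monocytes to 730 UPM in Fn1-rich cells. Each Tgfbr2-KO point of Trem2 lies below its control point, also in gates with too few cells in 1 pool to compare.

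Over all cells the 10 members did not move as one group: Trem2, Apoe, Cd9 and Cd36 were lower in the Tgfbr2-KO pool, and Fabp5 and Lpl were higher. Genes were counted if they had 100 or more UMIs in the pools together and reached 100 UPM in either one, and were called at 1.5-fold. Of 7 members counted, 4 were called lower, 2 higher and 1 (Lgals3) neither, while Gpnmb, Fabp4 and Spp1 fell short of 100 UPM. Among all 1736 genes counted, 9.27% were called lower, 11.4% higher and 20.7% in either direction. The median log2 ratio was -0.69 over the 7 members and 0.05 over all genes counted.

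Among the surface proteins, Trem2 went from 429 UPM (419 to 439) in control to 129 (125 to 133) in Tgfbr2-KO cells, 3.32-fold lower (3.19 to 3.45). Cd9, a tetraspanin that organises membrane microdomains and marks lipid-associated macrophages of fat, went from 830 to 322 UPM, 2.58-fold lower (2.51 to 2.65). Cd36, a scavenger receptor for oxidised lipoproteins and long-chain fatty acids, went from 396 to 245 UPM, 1.62-fold lower (1.56 to 1.67). All 3 receptors or membrane organisers were therefore lower, Trem2 by the largest factor of the 3. With the Tgfbr2-KO gates weighted to their control shares, Cd36 was 1.22-fold lower, under the 1.5-fold threshold, and its log2 ratio was -0.43 without interferon-activated cells and -0.41 with cells thinned, in place of -0.69.

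Among the secreted members, Apoe, the apolipoprotein that carries lipid out of macrophages and is itself a Trem2 ligand, went from 11573 to 5200 UPM, 2.23-fold lower (2.21 to 2.24). Lpl, lipoprotein lipase, which splits triglycerides of lipoproteins into fatty acids, went the other way, from 168 (162 to 174) to 270 UPM (264 to 276), 1.61-fold higher (1.54 to 1.68). At control gate shares, Lpl was 2.34-fold higher. Spp1, osteopontin, a matrix phosphoprotein of injury macrophages, was at 60.8 UPM (57.1 to 64.7) and 58.7 UPM (56.0 to 61.5), a ratio whose interval includes 1 (0.958 to 1.12-fold lower). The secreted lipid genes thus parted from each other: the carrier was lower and the lipase higher.

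Of the intracellular members and Gpnmb, Fabp5 alone was called, and it was higher. Fabp5, a fatty acid binding protein of macrophages and skin, went from 154.5 UPM (148.5 to 161) to 629 UPM (620 to 638), 4.07-fold higher (3.91 to 4.25). Its neighbour on chromosome 3, Fabp4, the fatty acid binding protein of fat cells and macrophages, was at 7.12 (5.88 to 8.54) and 16.1 UPM (14.7 to 17.6), 2.26-fold higher (1.85 to 2.80) on 116 and 495 UMIs. Gpnmb, a lysosomal and surface glycoprotein induced when lysosomes are loaded with lipid, was at 21.6 (19.4 to 24.0) and 93.6 UPM (90.2 to 97.1), 4.33-fold higher (3.88 to 4.85). Fabp4 and Gpnmb did not reach the level for a call. Lgals3, the sugar-binding protein galectin-3 that gathers at damaged lysosomes, was at 1646 and 1769 UPM, 1.08-fold higher (1.06 to 1.09). Fabp5 has processed copies elsewhere in the genome, and whether reads were divided between them was not tested.

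In the Mrc1-low gate, the largest in both pools, Trem2, Apoe and Cd9 were lower and Fabp5 and Lpl higher, so the opposed directions were also present in cells of 1 gate. Of 7 members counted, 3 were called lower and 2 higher, against 3.42% and 5.33% of 1519 genes (8.76% in either direction). Trem2 went from 454 to 225 UPM, 2.02-fold lower (1.91 to 2.13), Apoe from 10726 to 5536 UPM, 1.94-fold lower, and Cd9 from 897 to 562 UPM, 1.60-fold lower (1.54 to 1.66). Fabp5 went from 103 (96.1 to 110) to 494 UPM (479 to 509), 4.80-fold higher (4.46 to 5.18). Much of this level was in few cells: 9 of 879 Tgfbr2-KO cells held 46.4% of the Fabp5 UMIs there, and 11 of 1034 control cells 36.6%. The share of Fabp5-positive cells differed less than the level. With cells thinned it was 12.59% (10.62 to 14.77) in control and 19.95% (17.35 to 22.76) in Tgfbr2-KO cells of this gate. Lpl went from 180 to 372 UPM, 2.07-fold higher (1.94 to 2.20). The Cd9 call ended with gate cut-offs halved (log2 ratio -0.48) and with each cell weighing the same (-0.54), in place of -0.68. Cd36 (249 and 218 UPM) and Lgals3 (1620 and 1827 UPM) were under 1.5-fold. The Trem2 factor here was smaller than over all cells, and also smaller than in the Mrc1-high (2.97-fold) and other C1q-low gates (2.89-fold). Interferon-activated and monocyte-gated cells with little Trem2 make up more of the Tgfbr2-KO pool than of the control pool. The reason for the smaller factor was not tested. With gate shares held at the control values, Trem2 over all gates was 2.43-fold lower, Apoe 1.87-fold and Cd9 1.97-fold lower, and Fabp5 3.51-fold higher.

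In the Mrc1-high gate the same 5 genes differed in the same directions and Lgals3 joined the higher ones. Of 7 members counted, 3 were called lower and 3 higher, against 6.48% and 5.23% of 1682 genes (11.7% in either direction). Trem2 went from 334 (316 to 352) to 112.5 UPM (104 to 121), 2.97-fold lower (2.70 to 3.26). Cd9 went from 269 to 132 UPM, 2.04-fold lower (log2 ratio -1.03, and -1.74 with doubled gate cut-offs), and Apoe from 17984 to 11576 UPM, 1.55-fold lower (1.54 to 1.57), a call that ended with doubled gate cut-offs (log2 ratio -0.55) and with each cell weighing the same (-0.58), in place of -0.64. Apoe was at its highest here in the Tgfbr2-KO pool, where Trem2 was not. Fabp5 went from 70.6 to 337 UPM, 4.78-fold higher (4.22 to 5.42), with 55.6% of the Tgfbr2-KO UMIs in 7 of 622 cells and a log2 ratio of 1.32 in place of 2.26 with doubled gate cut-offs. Lpl went from 134 to 307 UPM, 2.29-fold higher (2.08 to 2.53), and Lgals3 from 610 to 985 UPM, 1.62-fold higher (1.54 to 1.69). The Lgals3 call ended with gate cut-offs halved (log2 ratio 0.49) or doubled (0.35) and with each cell weighing the same (0.46), in place of 0.69. Cd36 was at 677 and 544 UPM, 1.24-fold lower, above its level in every other gate except the 4 and 11 structural cells (1068 and 813 UPM). Gpnmb had 3 UMIs in control and 455 in Tgfbr2-KO cells, or 0.735 (0.152 to 2.15) and 75.6 UPM (68.8 to 82.9), a ratio of 103 with a counting interval of 35.0 to 501. Of the 455 UMIs, 93.2% were in 7 cells, and with doubled gate cut-offs the log2 ratio was 2.84 in place of 6.69.

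Other C1q-low cells were not alike in the pools, and the members differed there against the highest background. The control cells were led over the remaining control cells by Chil3, Cd209a and Ccl5, and the Tgfbr2-KO cells by S100a9, S100a8, Atp6v0d2 and Inhba, and their median depths were 5937 and 12569 UMIs. The 5 dendritic markers summed to 672 and 84.2 UPM, the 11 alveolar markers to 827 and 165 UPM (with Marco at 0 in both pools and Car4 at 0 in Tgfbr2-KO), and the 6 neutrophil markers to 146 and 889 UPM. The part of dendritic and alveolar cells in the member values was not tested. S100a9 and S100a8 came from few cells: without the 7 Tgfbr2-KO cells rich in them they were at 1.35 and 15.2 UPM in place of 446 and 359. Without these cells and 1 such control cell, Gpnmb was at 73.6 and 481 UPM and Fabp5 at 495 and 2264 UPM. Of 9 members counted, 4 were called lower and 2 higher, against 21.1% and 14.2% of 1972 genes (35.3% in either direction). Trem2 went from 342 to 118 UPM, 2.89-fold lower, and Apoe from 2246 to 706 UPM, 3.18-fold lower. The log2 ratio of Apoe was -1.67, with -0.88 with each cell weighing the same and -3.08 after subtracting free RNA. That subtraction used the limit of the whole pool, 469 UPM of Apoe in Tgfbr2-KO cells, where the limit of this gate was 93.6 UPM. It therefore took away more than the gate's own limit allows. Cd9 went from 1436 to 554 UPM, 2.59-fold lower, and Cd36 from 529 to 288 UPM, 1.84-fold lower (log2 ratio -0.88, and -0.57 with gate cut-offs halved). Gpnmb was counted in this gate alone and went from 73.5 (58.9 to 90.6) to 478 UPM (454 to 504), 6.51-fold higher. Fabp5 went from 497.5 (458 to 539) to 2310 UPM (2256 to 2365), 4.64-fold higher, and the latter was its highest level in the Tgfbr2-KO pool. In the control pool the 6 interferon-activated cells were at 503 UPM of Fabp5 (350 to 699). Lpl (209 and 279 UPM), Lgals3 (3210 and 4603 UPM) and Spp1 (114 and 92.2 UPM) were under 1.5-fold, but not under every setting. The log2 ratio of Lpl was 0.42, with -0.30 at halved gate cut-offs and 1.08 with the stricter cell filter, that of Lgals3 0.52 with 0.80 at halved cut-offs, and that of Spp1 -0.31 with -0.69 at doubled cut-offs.

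**Figure D2:**
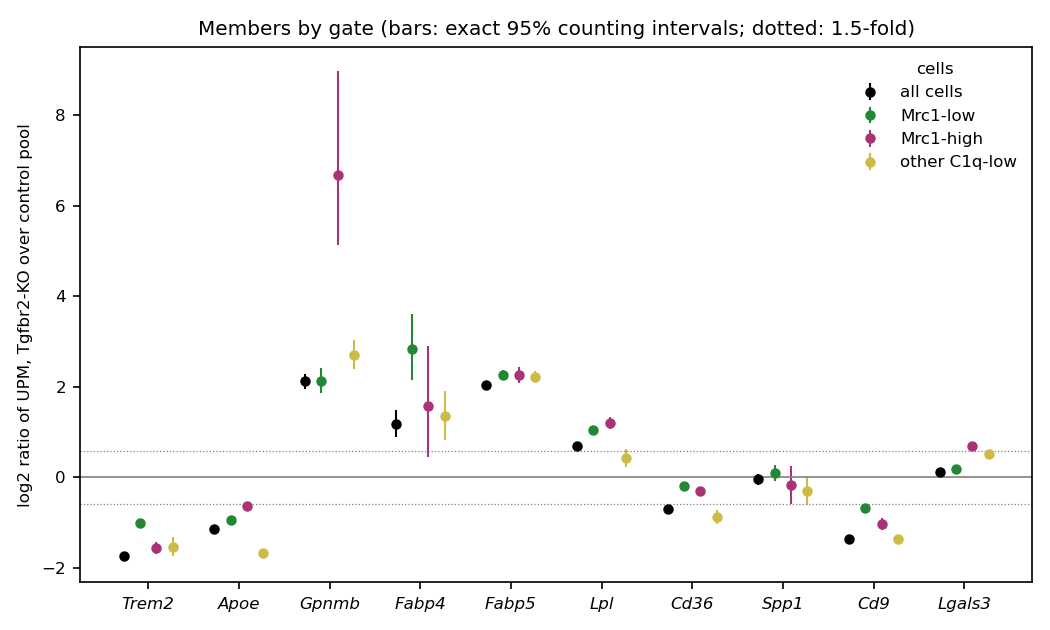
Log2 ratio of UPM, Tgfbr2-KO over control pool, for each member over all cells and in the 3 gates with at least 100 cells in both pools; bars are exact 95% counting intervals and dotted lines mark 1.5-fold. Trem2, Apoe and Cd9 lie below the lower line in each set of cells (Trem2 from 2.02-fold to 3.32-fold lower), and Fabp5 lies above the upper one in each (4.07-fold to 4.80-fold higher).

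The remaining gates held too few cells in 1 pool for a comparison, so only levels are given. The 111 Fn1-rich control cells had 1725 UPM of Cd9, 11234 of Apoe, 3306 of Lgals3, 383 of Fabp5, 76.5 of Gpnmb and 190 of Lpl. The 19 such Tgfbr2-KO cells had 473 UPM of Cd9, 2845 of Apoe and 940 of Lpl (833 to 1055). Trem2 and Cd9 thus had their highest control level in Fn1-rich cells, while Lgals3 there overlapped its level in other C1q-low cells within counting error. The 457 interferon-activated Tgfbr2-KO cells, with 1281 UPM of classical monocyte markers against 443 in the Tgfbr2-KO Mrc1-low gate, had 3959 UPM of Apoe, 692 of Fabp5, 186 of Cd9, 76.8 of Cd36, 72.2 of Spp1 and 27.4 of Gpnmb. Their Fabp5 was above that of the Mrc1-low and Mrc1-high Tgfbr2-KO gates and their Trem2, Apoe and Cd36 below both, while their Cd9 lay between them. The 281 Tgfbr2-KO monocytes had 1259 UPM of Apoe, 223 of Fabp5, 115 of Lpl and 106 of Cd9, and the 36 control monocytes 4420, 148, 43.6 and 104 UPM.

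The share of positive cells (at least 1 UMI) was smaller in the Tgfbr2-KO pool for the genes with a lower level there, and for Gpnmb it differed far less than the level did. Cells were thinned to 3000 UMIs for this, leaving out 80 control and 83 Tgfbr2-KO cells that were shallower, and unthinned shares follow in brackets. Trem2 was found in 61.1% of control and 26.0% of Tgfbr2-KO cells (79.1% and 42.8%), and Cd9 in 69.4% and 40.5% (79.8% and 57.4%). Cd36 was found in 41.8% and 30.0% (56.4% and 47.8%) and Spp1 in 9.42% and 7.10% (17.7% and 14.5%). For Trem2, Cd9 and Cd36 the share was smaller in the Tgfbr2-KO pool, with intervals apart. Apoe was found in 83.9% and 73.3% (88.9% and 86.7%), so most cells of both pools kept some Apoe, and the mean over positive cells at full depth was 112 and 69.0 UMIs. The 5 shares with a higher value in the Tgfbr2-KO pool were those of Fabp5 with 15.8% and 24.4% (28.5% and 41.7%), Lpl with 24.9% and 33.2% (41.2% and 52.1%), Lgals3 with 77.6% and 80.8% (86.8% and 91.1%), Fabp4 with 0.881% and 1.58% (1.74% and 2.77%) and Gpnmb with 2.92% and 3.82% (5.17% and 5.65%). The intervals overlapped for Gpnmb (2.19 to 3.8% and 3.12 to 4.63%), Fabp4 (0.504 to 1.43% and 1.14 to 2.14%), Lgals3 (75.7 to 79.5% and 79.2 to 82.3%) and Spp1 (8.11 to 10.9% and 6.14 to 8.16%), and were apart for the other 6 members. In Tgfbr2-KO monocytes, the gate with the lowest Trem2 but for the structural cells, the thinned share of Trem2 was 6.14% at a level of 24.98 UPM, of which free RNA could give at most 0.939 UPM. Near-empty barcodes gave 277 UPM of Trem2, 10482 of Apoe, 55.3 of Gpnmb and 595 of Fabp5, and free RNA was at most 2.32% of control and 4.47% of Tgfbr2-KO UMIs. At that limit it would give 12.4 of the 129 UPM of Trem2 and 2.47 of the 93.6 UPM of Gpnmb in the Tgfbr2-KO pool.

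**Figure D3:**
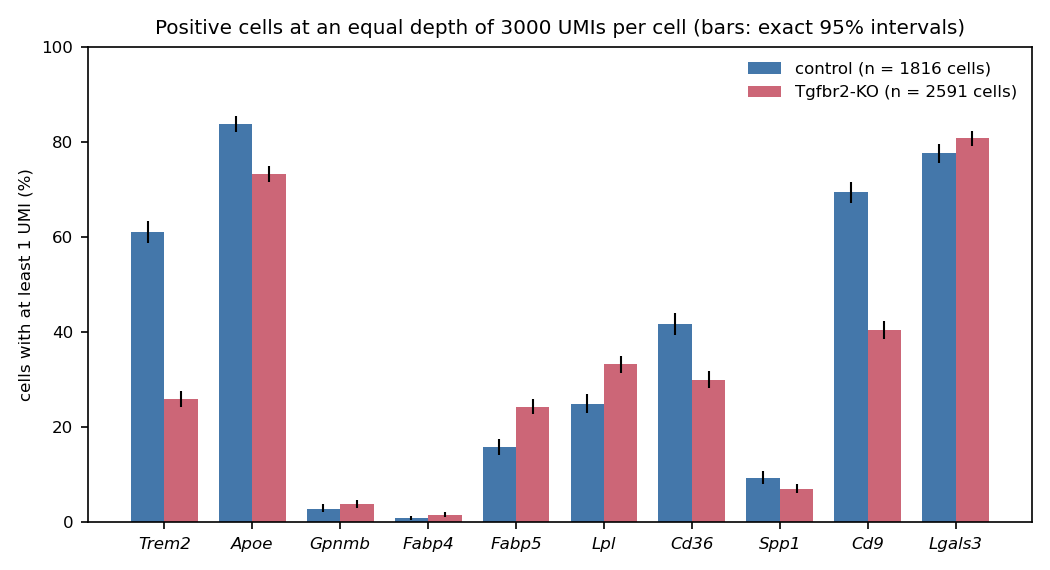
Share of cells with at least 1 UMI of each member after thinning to 3000 UMIs per cell, in 1816 control (blue) and 2591 Tgfbr2-KO cells (red), with exact 95% intervals. Trem2 and Cd9 differ the most in share (61.1% and 26.0%, 69.4% and 40.5%), and the Gpnmb bars (2.92% and 3.82%) overlap in their intervals.

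A few cells with many UMIs held most of the Gpnmb and a large part of the Fabp5 of the Tgfbr2-KO pool. Gpnmb-positive cells numbered 98 in control and 151 in Tgfbr2-KO, with a mean of 3.59 and 19.1 UMIs each, and 5 against 67 cells held at least 10 Gpnmb UMIs. For Fabp5 the mean over positive cells was 4.65 and 17.3 UMIs, and 76 against 261 cells held at least 10. The top 1% of cells for each gene held 65.3% of the Gpnmb and 38.8% of the Fabp5 UMIs of the Tgfbr2-KO pool, but 13.4% of its Trem2 UMIs. Without the cells of 10 or more Gpnmb UMIs, a choice made after seeing the data, the log2 ratio of Fabp5 over all cells was 1.20 in place of 2.03, that of Fabp4 0.36 in place of 1.18, and that of Lgals3 -0.19 in place of 0.10. Fabp5 thus stayed above 1.5-fold in the remaining cells, and the Lgals3 ratio changed sign.

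Cells with Gpnmb carried more Fabp5 and Lgals3 than the rest of their pool, and more Trem2 as well. In the Tgfbr2-KO pool, the 151 Gpnmb-positive cells had 4351 UPM of Fabp5, 6248 of Lgals3, 709 of Cd9 and 246 of Trem2, against 255, 1320, 283 and 117 UPM in the other 2523 cells. In the control pool, the 98 positive cells had 740 UPM of Fabp5, 3510 of Lgals3, 1764 of Cd9 and 703 of Trem2, against 100.5, 1474, 744 and 403 UPM in the other 1798. Trem2 was found in 96 of the 98 control cells (98.0%, 92.8 to 99.8) and in 104 of the 151 Tgfbr2-KO cells (68.9%, 60.8 to 76.2), at unequal depth, since the positive cells had medians of 13005.5 and 17267 UMIs. Both pools thus had a group of deep cells with Gpnmb, Fabp5, Lgals3, Cd9 and Trem2 together, and the Tgfbr2-KO group had less Trem2, Cd9 and Apoe (3903 against 12312 UPM) and more Fabp5. Fn1 separated the groups too, at 2402 UPM in control and 208 UPM in Tgfbr2-KO Gpnmb-positive cells. The 11 alveolar macrophage markers summed to 660 UPM (10 detected, Marco at 0) in the control cells and 93.4 UPM (8 detected, with Cidec, Ear1 and Krt79 at 0) in the Tgfbr2-KO cells. In the 5 control cells of 10 or more Gpnmb UMIs the sum was 5608 UPM, with 8 of the 11 detected. In the 67 Tgfbr2-KO cells of 10 or more Gpnmb UMIs the sum was 120 UPM, 5 of the 11 were detected, Car4 and Marco were at 0 and Siglecf was at 2.82 UPM. Doublets of 1 hashtag cannot be seen in these files, and their part in the deep cells was not tested.

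Over all cells of a pool, Cd9, Apoe and Gpnmb were found more often in cells with Trem2, and within gates only part of this remained. At 3000 UMIs, Cd9 was found in 73.9% (71.3 to 76.5) of control cells with Trem2 and in 62.4% (58.7 to 65.96) without it, and in 63.3% (59.5 to 67.0) against 32.5% (30.4 to 34.6) of Tgfbr2-KO cells. Apoe was found in 87.7% against 77.9% of control and 82.5% against 70.1% of Tgfbr2-KO cells. Gpnmb was found in 4.15% (3.05 to 5.49) against 0.9901% (0.399 to 2.03), and in 6.54% (4.79 to 8.68) against 2.87% (2.17 to 3.72). These 3 were more frequent in Trem2-positive cells of either pool, with intervals apart, and in Tgfbr2-KO cells Spp1 was as well (11.4% against 5.58%). Within gates, Cd9 had intervals apart in all 4 Tgfbr2-KO gates described but in control in other C1q-low cells alone (98.0% against 60.7%), with overlap in the Mrc1-low (83.1% against 80.7%), Mrc1-high (42.4% against 31.3%) and Fn1-rich control gates (97.7% against 96%). Apoe had intervals apart in both Mrc1-low gates and in interferon-activated Tgfbr2-KO cells, and overlapping ones in both Mrc1-high gates (95.04% against 92.4% in control, 93.02% against 92.7% in Tgfbr2-KO), in both other C1q-low gates and in Fn1-rich control cells. Gpnmb had intervals apart in control Mrc1-low and Tgfbr2-KO other C1q-low cells, and overlapping ones in the remaining 6 sets of cells. Fabp5 (17.0% and 13.9% in control, 22.0% and 25.2% in Tgfbr2-KO), Lpl, Cd36, Fabp4 and Lgals3 had overlapping intervals over all cells. Within the Mrc1-high Tgfbr2-KO gate, Cd9 was found in 37.2% of Trem2-positive and 13.1% of other cells, but Cd36 in 37.98% (29.6 to 47.0) against 55.8% (51.3 to 60.3), the opposite order. Among other C1q-low Tgfbr2-KO cells, Fabp5 was found in 80% (64.4 to 91.0) of 40 Trem2-positive and 40% (32.4 to 48.0) of 160 other cells, and Gpnmb in 52.5% (36.1 to 68.5) of the former, with an interval of 7.81 to 18.6% in the others. Cells of a pool are not replicates, so these intervals describe this pool only.

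**Figure D4:**
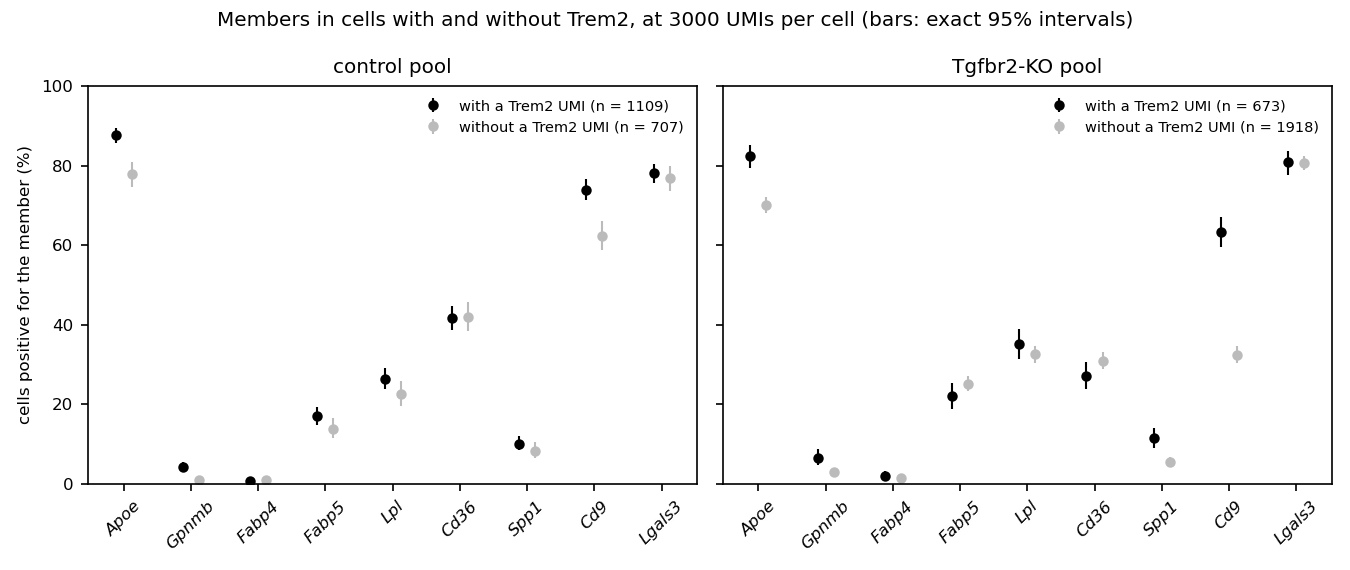
Share of cells with each other member among cells with and without a Trem2 UMI, after thinning to 3000 UMIs, with exact 95% intervals, in the control and the Tgfbr2-KO pool. Cd9 in Tgfbr2-KO cells shows the widest gap (63.3% against 32.5%), and Fabp5 (22.0% against 25.2%) overlaps in its intervals.

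The gates that held each member's UMIs also differed between the pools. In control cells, 37.2% of Gpnmb UMIs were in the Mrc1-low, 36.1% in the Fn1-rich, 24.7% in the other C1q-low and 0.852% in the Mrc1-high gate. In Tgfbr2-KO cells, 49.8% were in the other C1q-low, 21.2% in the Mrc1-low and 15.8% in the Mrc1-high gate. These shares of Gpnmb rest on few cells, since 19 control cells held 49.7% and 27 Tgfbr2-KO cells 65.3% of its UMIs. The Tgfbr2-KO pool had fewer Fn1-rich cells, and the part of this in the shares was not tested. Trem2 had 53.0% of its control and 49.2% of its Tgfbr2-KO UMIs in the Mrc1-low gate, but 17.3% against 1.54% in the Fn1-rich and 0.200% against 14.4% in the interferon-activated gate. Cd36 stayed with the Mrc1-high gate (42.8% and 43.6%).

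**Figure D5:**
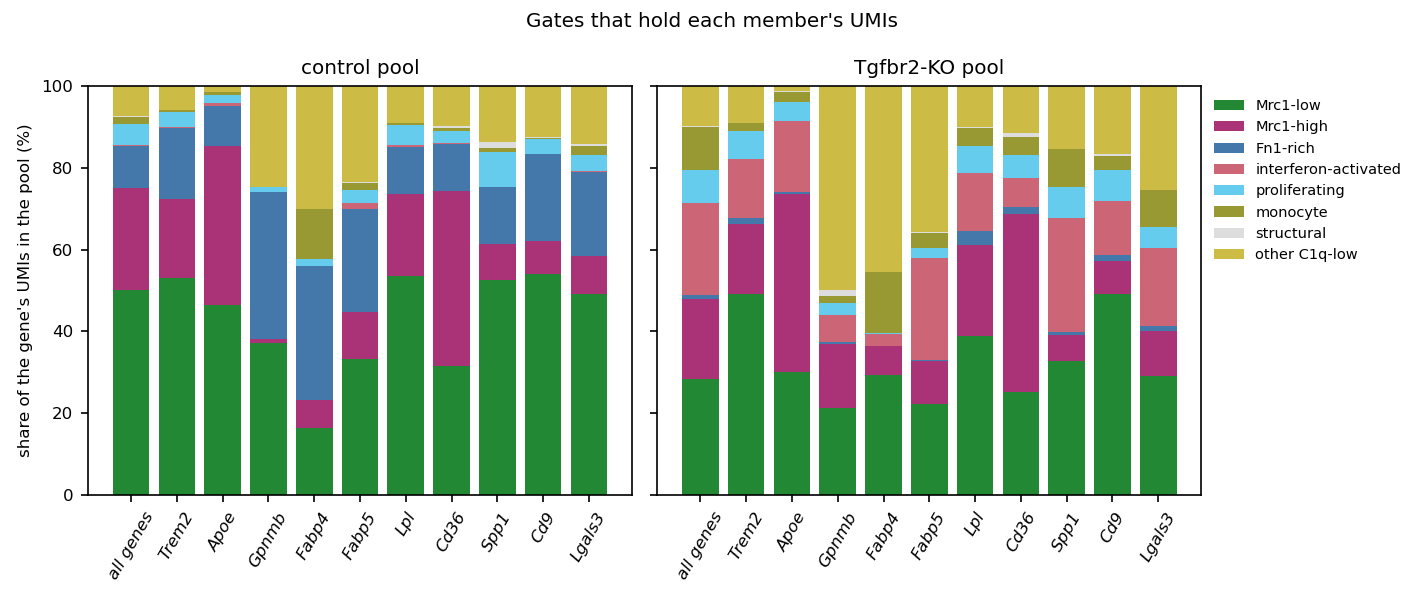
Percent of each member's UMIs that lies in each marker gate, as stacked bars for the control and the Tgfbr2-KO pool. The Fn1-rich part of Gpnmb is 36.1% in control and 0.383% in Tgfbr2-KO, and its other C1q-low part is 49.8% in Tgfbr2-KO. The Mrc1-low part of Trem2 is 53.0% and 49.2%.

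Genes whose level ran most like that of Trem2 were looked for over the 11 gate-by-pool groups of at least 50 cells, with Pearson's r of log2(UPM + 10), as a description with no p. The groups share 1 library, and groups of a pool share their mice. The 8 most alike were Pmepa1 (r 0.96, rho 0.93), Tmbim1 (0.96, 0.95), Ldlrad4 (0.96, 0.95), 2510009E07Rik (0.96, 0.93), Nlrp3 (0.95, 0.95), Itga5 (0.95, 0.89), Peli2 (0.94, 0.93) and Zc3h12a (0.94, 0.90). Groups of both pools entered this ranking, and all 8 were lower in the Tgfbr2-KO pool, from 1.65-fold (Zc3h12a) to 3.01-fold (Pmepa1). After subtraction of each pool's mean, their r ran from 0.81 (Peli2) to 0.88 (Pmepa1), a range that also holds the member Lpl (0.86). As background, Pmepa1 and Ldlrad4 encode TGF-beta-induced inhibitors of Smad signalling, Nlrp3 is an inflammasome sensor and Itga5 is the fibronectin receptor's alpha chain. Over all cells, Pmepa1 went from 246 to 81.7 UPM, 3.01-fold lower, and Ldlrad4 from 274 to 128 UPM, 2.13-fold lower. Of the members, Cd9 came closest to Trem2 (r 0.84, rho 0.86), followed by Cd36 (0.64, 0.62) and Apoe (0.59, 0.46). Spp1 (0.23), Lgals3 (0.16), Lpl (0.10), Gpnmb (-0.07), Fabp4 (-0.09) and Fabp5 (-0.27) had a lower r. With the mean of each pool taken out, r with Trem2 was 0.86 for Lpl, 0.69 for Cd9, 0.52 for Gpnmb, 0.40 for Apoe, 0.39 for Cd36, 0.35 for Fabp5, 0.27 for Lgals3, 0.10 for Spp1 and 0.07 for Fabp4. Lpl thus ran with Trem2 once pool means were removed, but differed from it in direction between the pools. In control cells, Lpl was at 209 UPM in other C1q-low, 190 UPM (169 to 212) in Fn1-rich and 180 UPM in Mrc1-low cells. Trem2 was at 342, 730 and 454 UPM there. In the other C1q-low gate, 2 of 163 control cells held 58.3% of the Lpl UMIs. The gate in which Lpl was highest is thus not set apart from the Fn1-rich gate.

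The counted genes of Trem2 signalling differed less than the receptor. Of 9 such genes, 5 were counted over all cells and 0 were called, where 20.7% of all genes counted were called in either direction. With 5 genes, 0 calls do not set the list apart from that share. The adaptor Tyrobp was at 1850 and 2049 UPM, the kinase Syk at 316 and 315, the kinase subunit Pik3r1 at 236 and 223, and Adam17, a protease that sheds Trem2, at 136.5 and 140 UPM. The median log2 ratio of the 5 was 0.03, against 0.05 over all genes counted. Of 20 genes of lipid uptake, storage and efflux, 7 were counted and 2 were lower (median -0.12), where 9.27% of all genes counted were lower; the same share stands behind the next lists. Abca1, which passes cholesterol to apolipoproteins, went from 690 to 329 UPM, 2.10-fold lower, and Lrp1, an Apoe receptor, from 213 to 118 UPM, 1.80-fold lower. The lysosomal lipase Lipa was at 150 and 171 UPM and the cholesterol carrier Npc2 at 913 and 1095 UPM. In the Mrc1-low gate 1 of 7 counted was called, where 8.76% of all genes counted were called in either direction. In the Mrc1-high gate 0 of 7 counted were called, where 11.7% of all genes counted were. In other C1q-low cells 5 of 11 counted were lower, where 21.1% of all genes counted were.

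Of 13 transcription factors of lipid and lysosome genes, 3 were counted and 1 was lower (median -0.52). Mitf, a factor of lysosomal genes, went from 269.5 to 135 UPM, 1.99-fold lower, in the opposite direction to Gpnmb, a gene it is known to act on. Bhlhe40 (148 and 103 UPM) and the fatty acid receptor Ppard (120 and 97.8 UPM) were under 1.5-fold. Of 22 other genes of lipid- and damage-associated macrophages, 21 were measured, 13 were counted and 2 were lower (median -0.24), with none higher: Igf1, a growth factor, went from 188 to 119 UPM, 1.57-fold lower, and Mmp12, macrophage elastase, from 550 to 362 UPM, 1.52-fold lower. Within the gates compared, these 2 differed in direction. Mmp12 was 1.10-fold lower in the Mrc1-low, 1.09-fold higher in the Mrc1-high and 1.38-fold higher in the other C1q-low gate. Igf1 was 1.10-fold lower, 1.45-fold higher and 5.30-fold lower in the same order. The cathepsins Ctsb (1513 and 1661 UPM) and Ctsz (966 and 1298 UPM) were under 1.5-fold over all cells. In the Mrc1-low gate 0 of 13 were called, where 8.76% of all genes counted were called in either direction. In other C1q-low cells 3 of 17 counted were higher and 1 lower (median 0.31), against 14.2% and 21.1% of all genes counted there, with Ctsb at 1045 and 1575 UPM, 1.51-fold higher, and Ctsz at 982 and 1816 UPM, 1.85-fold higher. Of 15 relatives of the members, 3 were counted and 0 called (median -0.37), where 20.7% of all genes counted were called in either direction over all cells. Among the 3 were the tetraspanins Cd81 (807 and 626 UPM) and Cd63 (641 and 492 UPM).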

How the data were processed

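Sorted lung cells of 2 hashtagged pools were sequenced as 1 RNA library. The deposited matrix holds counts, as UMIs for 22597 genes and 3 hashtags in 1172636 barcodes, made with Cell Ranger 8.0.0 per the file headers. The submitters' processing notes also name Seurat 5.1.0 and GRCm38; their steps and the annotation version are not given in the sources used here. The deposited hashtag table gives each of 4887 called cells an assignment and its probability, a fraction. Multiplets (96) and blank or unassigned cells (54 and 66) were left out, and doublets within 1 hashtag cannot be seen. Cells with at least 1000 UMIs, 500 genes and at most 10% mitochondrial UMIs were kept.

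Cell markers were scored per 10000 UMIs, with cut-offs of 3 (proliferating), 20 (C1q, interferon, structural) and 10 (monocyte, Fn1, Mrc1). The structural split and the comparison in other C1q-low cells were added after seeing the data, and the Fn1-rich gate was too small in 1 pool to compare. With 1 pool per genotype no test was run, and 1.5-fold marks a call. The members and gene lists were chosen with earlier results of these data known. Named genes are all members, the 2 highest and 2 lowest ratios of each list among genes counted, and the 8 genes most like Trem2; the leading genes of other C1q-low cells, their S100a8 and S100a9, and the Gpnmb-positive cells were chosen after seeing values. Alternatives covered filters, scaling, gate cut-offs, free RNA, thinning and cells left out. Calculations used Python 3.11.15 with numpy 2.4.6, scipy 1.17.1 and pandas 2.3.3.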

Additional observations from a re-analysis of the deposited data

Results flagged for a closer look

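The 109 cells that passed the cell filter but had a blank or unassigned hashtag enter no comparison. Their level was above that of the control pool, with intervals apart from its value, for 4 members: Gpnmb at 276.5 UPM (240.7 to 316.2, against 21.6), Fabp4 at 20.7 UPM (11.8 to 33.6, against 7.12), Fabp5 at 209 UPM (178 to 244, against 154.5) and Lpl at 310 UPM (272 to 352, against 168). The other 6 members were not above it, Trem2 standing at 362 UPM against 429. The pool of these cells is not known.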

How the results depend on the processing

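Of 475 recomputed single values (log2 ratios, shares of positive cells and differences by Trem2), 277 stayed within the counting error of the main value and 198 moved outside it. Of 65 recomputed counts, 63 stayed within 1.5 times of the reported ones. These were counts of members called, with a larger positive share in the Tgfbr2-KO pool, or found more often with Trem2. The 2 members higher over all cells became 4 with members under 100 UPM included, an alternative added after seeing the data, and 1 at a 2-fold threshold. All 220 alternatives of the 23 called ratios kept their sign, and 207 stayed past 1.5-fold. Over all cells, the log2 ratio ran from -1.86 to -1.28 for Trem2, -1.50 to -0.98 for Cd9, -1.26 to -0.90 for Apoe, 1.20 to 2.30 for Fabp5 and 0.62 to 1.23 for Lpl. Cd36 lost its call at control gate shares (-0.29), with cells thinned (-0.41), without interferon-activated cells (-0.43), as a mean over cells (-0.45) and in C1q cells only (-0.58). Lgals3 in the Mrc1-high gate lost its call with doubled (0.35) or halved gate cut-offs (0.49) and as a mean over cells (0.46). The remaining lost calls were Cd9 in the Mrc1-low gate (-0.48 with halved cut-offs, -0.54 as a mean over cells), Apoe in the Mrc1-high gate (-0.55 with doubled cut-offs, -0.58 as a mean over cells) and Cd36 in other C1q-low cells (-0.57 with halved cut-offs). Trimmed-mean scaling shifted the log2 ratios over all cells by 0.07. The shift was computed anew in each gate, and in the Mrc1-low gate it took Apoe from -0.95 to -1.05. The cause of these moves was not tested. The planned counts in the Fn1-rich gate were not run for want of cells. No paired analysis was possible because each genotype is 1 pool. With 1 pool each, differences between mice, hashtags or sorts cannot be told apart from the genotype. LyzM-Cre is named for the Tgfbr2-KO marrow alone, so the presence of Cre cannot be told apart from the loss of Tgfbr2.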
